A study of Homo sapiens with 15 samples.

Results

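CAKi-1 and 786O, a pair of human clear cell renal cell carcinoma (ccRCC) cell lines, were compared gene by gene in the state labelled WT, for wild type. The comparison used every WT library of the series, 4 of CAKi-1 and 3 of 786O, which is 7 of 15 libraries, and none of the 8 libraries of cells with a knockout of *ANGPTL4*. CAKi-1 was established from a metastasis and 786O from a primary tumor. CAKi-1 has WT *VHL* and 786O has mutant *VHL*. The series description states that a nuclease protein (written Caspase 9 there) and a guide against *ANGPTL4* were put into cells of both lines, that single clones were grown, and that clones which kept *ANGPTL4* were combined as the WT cells. The methods of the study name such combined clones for 786O and parental cells for CAKi-1. CAKi-1 came from a cell repository and 786O from the company that did the editing. All cells were untreated and were taken in log growth before confluence, and the medium is given as RPMI by the sample labels and as DMEM by the methods. The lines therefore differed in donor, *VHL* status, supplier, possibly in the selection of clones, and in the file that holds their values, and these cannot be told apart. Nothing states that the replicates were separate cultures, so p-values measure the spread between these libraries, which may be technical.

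In ccRCC, which derives from the epithelium of the proximal tubule, the *VHL* protein is usually lost. *VHL* is the part of a ubiquitin ligase that recognises the alpha subunits of hypoxia-inducible factor (HIF) when oxygen is present, and without it HIF accumulates and switches on genes for angiogenesis, glucose uptake and pH control. *ANGPTL4* is a secreted protein made under the control of HIF and of the peroxisome proliferator-activated receptors (PPAR), and its N-terminal part inhibits lipoprotein lipase. *LIPA* encodes lysosomal acid lipase, which cleaves cholesterol esters and triglycerides inside lysosomes.

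Expression is given as transcripts per 1000000 transcripts (TPM), rescaled so that every library has the same sum over the 15247 genes that have a value in both lines. TPM is corrected for transcript length. Values are the mean ± SD over the 4 CAKi-1 and the 3 786O libraries (n = 4 and n = 3). Where values are paired without naming the lines, those of CAKi-1 come first. Among the genes given library by library in both lines, the lines did not overlap except in *CPT1A*, *MKI67*, *CXCL8*, *CXCL5*, *CCL20* and *IL6*. A log2 difference is CAKi-1 minus 786O on the scale log2(TPM + 1), which understates the ratio of genes with low levels, and its adjusted p is from limma with Benjamini-Hochberg adjustment over all 15247 genes. A gene was called when the adjusted p was at most 0.05 and the absolute log2 difference at least 1. With 4 libraries against 3, an exact permutation test of 1 gene cannot give a two-sided p below 0.0571, so no permutation p is given. The number of reads per library is not kept in TPM. Levels under 1 TPM are shown for orientation only.

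Libraries of a line resembled each other more than those of the other line. Pearson correlations of log2(TPM + 1) ran from 0.993 to 0.998 within CAKi-1, from 0.997 to 0.998 within 786O, and from 0.916 to 0.922 between lines. The lowest correlations within CAKi-1 and between lines were those of CAKi-1 replicate 4. Mitochondrially encoded genes held 6.41% of that library and between 7.49% and 8.18% of each of the others. In CAKi-1, replicates 3 and 4 stood apart from replicates 1 and 2 in a group of cytokine genes, and values without them are given beside results that turned on them.

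Of the 15247 shared genes, 2800 (18.4%) were called, 1057 (6.93%) with higher expression in CAKi-1 and 1743 (11.4%) with higher expression in 786O. The median gene was lower in CAKi-1 (median log2 difference -0.08), and the split moved with the scaling. After quantile normalization, 1311 genes were called higher in CAKi-1 and 1403 in 786O, so that CAKi-1 held 48.3% of the calls instead of 37.8%. Without CAKi-1 replicates 3 and 4, 2771 genes were called, and among the genes named here *GDF15*, *GBP2*, *NT5E*, *TGFA* and *SMIM11* were no longer called while *IL6* and *B2M* were. Most shared genes differed by amounts that were large only against the spread between these libraries, which may be technical. The adjusted p alone passed for 11268 genes (73.9%), and in 11265 (73.9%) the highest library of one line lay below the lowest of the other. Differences of at least 16-fold on this scale were few, with 54 genes higher in CAKi-1 and 51 higher in 786O.

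**Figure D1:**
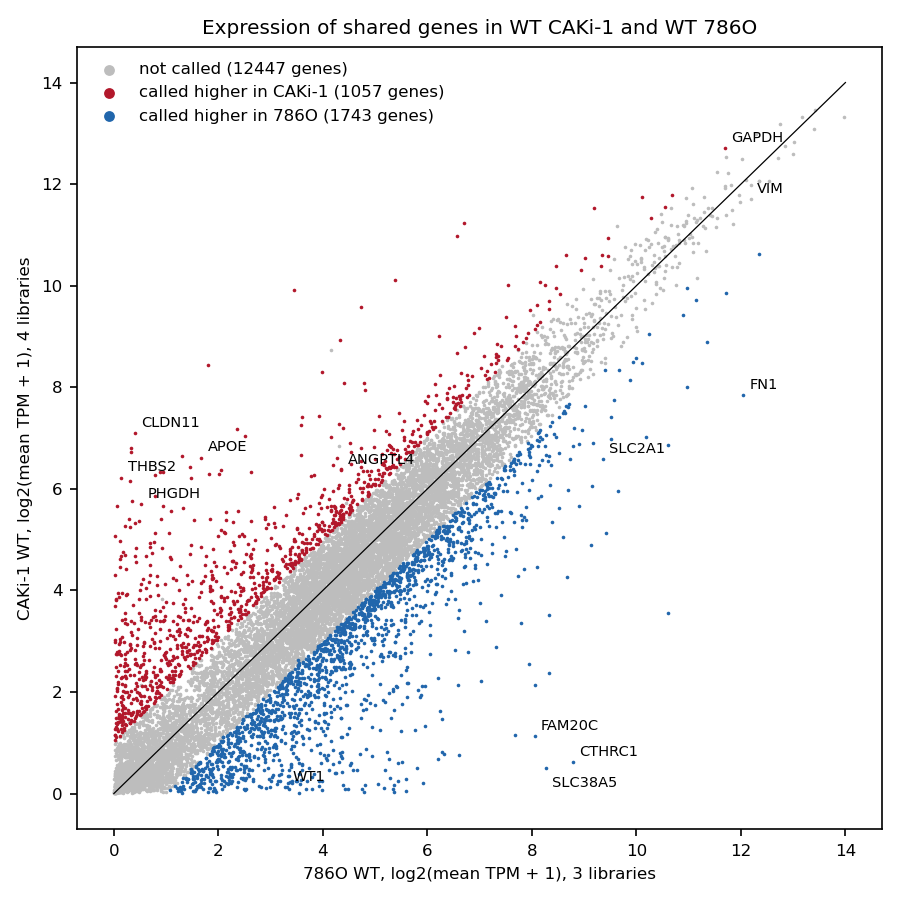
Mean expression of the 15247 shared genes in WT 786O (horizontal axis) and WT CAKi-1 (vertical axis), both as log2(mean TPM + 1). Red points are the 1057 genes called higher in CAKi-1, blue points the 1743 called higher in 786O and grey points the others, and the diagonal marks equal levels, with CLDN11 far above it and FN1, SLC38A5 and CTHRC1 far below it.

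The genes with the largest differences separated the lines almost as present against absent. *CLDN11*, a tight junction claudin, was at 116, 107, 142 and 179.9 TPM in the CAKi-1 libraries and at 0.437, 0.286 and 0.243 TPM in the 786O libraries (log2 difference 6.67, SE 0.17, adjusted p = 4.2e-08). *CYP24A1*, the enzyme that inactivates vitamin D, reached 111 ± 13 TPM in CAKi-1 and 0.256 ± 0.274 TPM in 786O. *PLTP*, a phospholipid transfer protein of lipoproteins, followed with 105 ± 11.5 against 0.25 ± 0.0217 TPM. The acute-phase apolipoprotein *SAA2* shares sequence with *SAA1*, so its reads may be split between them, and its log2 difference of 6.08 was 4.89 without CAKi-1 replicates 3 and 4. The secreted matrix proteins *THBS2* (73.7 ± 6.65 against 0.106 ± 0.0382 TPM), *NID1* (49.3 ± 1.41 against 0.0365 ± 0.00517 TPM) and *PXDN* (79.3 ± 5.66 against 0.838 ± 0.288 TPM), the ribosomal protein variant *RPL39L* (70.2 ± 4.78 against 0.247 ± 0.163 TPM), the calcium-binding *CPNE7* (76.7 ± 6.23 against 0.733 ± 0.272 TPM) and the signalling inhibitor *SHISA2* (79.99 ± 4.57 against 0.926 ± 0.113 TPM) completed the 10 largest differences toward CAKi-1.

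Toward 786O the order was led by *CTHRC1*, a secreted protein linked to collagen matrix, with 426, 446 and 444 TPM in 786O and 0.427, 0.84, 0.521 and 0.336 TPM in CAKi-1 (log2 difference -8.18, SE 0.10, adjusted p = 1.7e-09). *SLC38A5*, a glutamine and serine transporter, had 310.1, 303 and 311 TPM in 786O and 0.306, 0.699, 0.319 and 0.312 TPM in CAKi-1. The chemoattractant chemerin (*RARRES2*) stood at 10.7 ± 1.4 against 1561 ± 67.1 TPM. *FAM20C*, the kinase of secreted proteins, stood at 1.19 ± 0.208 against 265 ± 1.08 TPM, and *PTGDS*, prostaglandin D synthase, at 4.19 ± 0.978 against 318 ± 7.08 TPM. *C1QL1* (1.23 ± 0.232 against 203 ± 1.81 TPM), *LRRN4* (3.37 ± 0.649 against 266 ± 6.68 TPM), the basement membrane protein *NID2* (0.696 ± 0.0982 against 96.4 ± 3.56 TPM), the neurotrophic ligand *ARTN* (0.155 ± 0.0595 against 59.7 ± 2.89 TPM) and the guidance receptor ligand *SEMA5A* (0.0306 ± 0.00671 against 47.4 ± 1.5 TPM) made up the rest of the first 10. In all 20 genes the lines did not overlap, which the rule for choosing them required.

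The files of the lines do not hold the same genes, and how genes were left out of each is not stated, so a gene with a value in 1 line only has no fold change here. CAKi-1 had values for 1049 genes with none in 786O among the genes analysed here, and 786O for 941 with none in CAKi-1. Most of these were low, with medians of 0.253 and 0.218 TPM as deposited, but 45 and 32 had means of at least 10 TPM. In CAKi-1 the highest were *CXCL6*, a neutrophil chemokine (10.7, 17.6, 303 and 1140.3 TPM in replicates 1 to 4), the proteoglycan *SRGN* (257 ± 37.4 TPM), *ARMCX2* (117 ± 9.0 TPM), the cytokine-like *CYTL1* (73.7 ± 5.2 TPM) and the fucose mutarotase *FUOM* (59.9 ± 3.93 TPM). *CXCL6* led by its mean over the 4 libraries, and in replicates 1 and 2 it lay below each of the other 4 genes. In 786O, leaving out Y-linked genes, the highest were the neurofilament *NEFL* (138 ± 0.567 TPM), *CHRDL1*, an antagonist of bone morphogenetic proteins (126 ± 3.3 TPM), the imprinted splicing gene *SNRPN* (96.2 ± 0.621 TPM), *TMEM98* (65.7 ± 2.64 TPM) and *UGT1A8* (56.1 ± 1.37 TPM). *UGT1A8* shares all but its first exon with the other UGT1A genes, so the assignment of its reads is uncertain.

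For most of what follows, genes were grouped in 31 lists by function, and the share of each list called in each direction can be read against 6.93% and 11.4% over all shared genes. The genes named are those with the largest differences in a list and fixed markers, and some further members were added for their role after their values had been seen. These shares are descriptions. Lists share members, and the number of libraries does not grow with the number of genes.

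**Figure D2:**
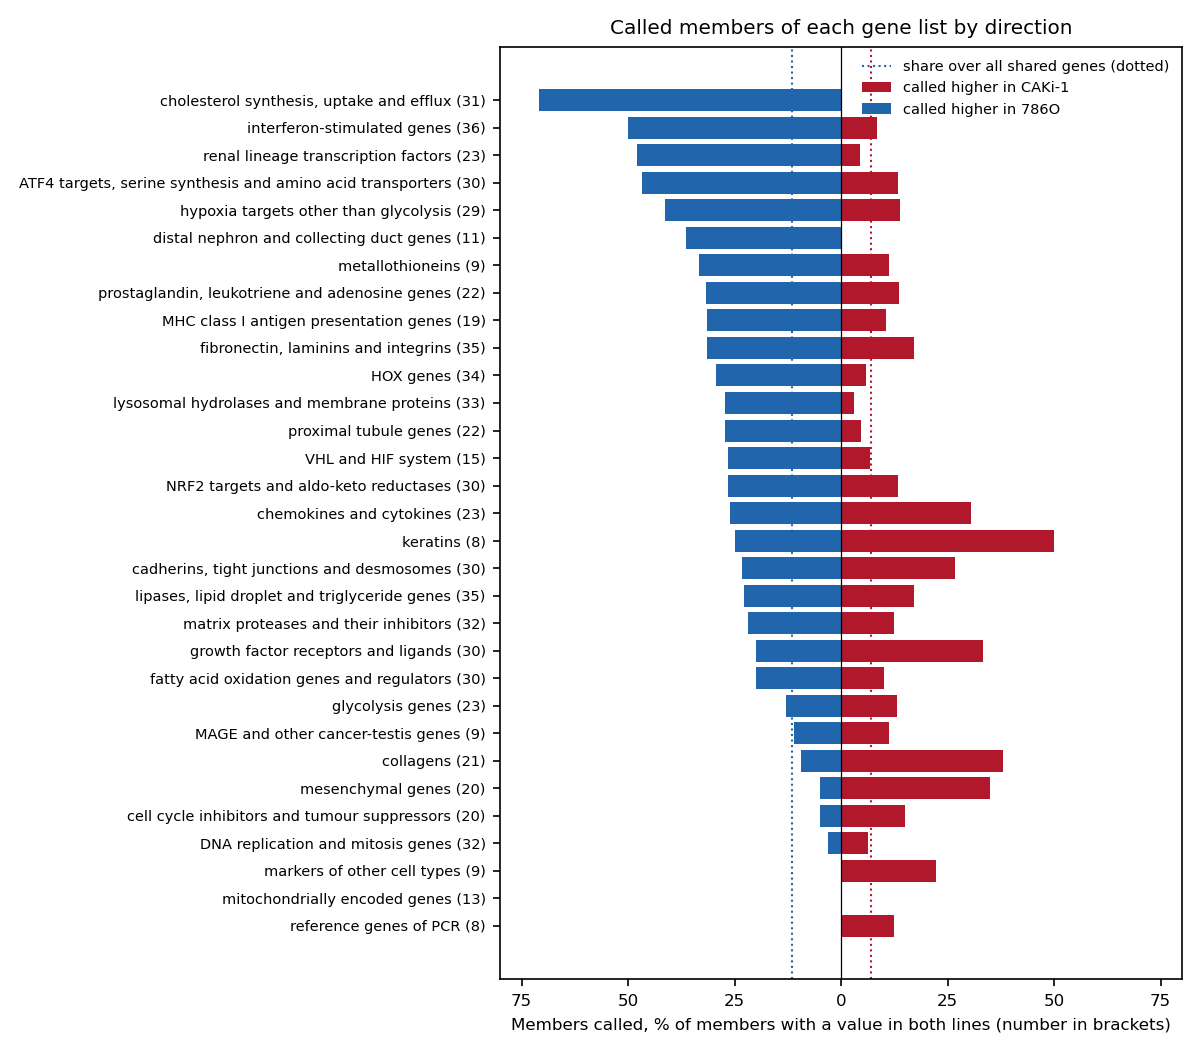
Percentage of the members of each of 31 gene lists called higher in 786O (blue, to the left) or in CAKi-1 (red, to the right), with the number of members that have a value in both lines in brackets and dotted lines at the shares over all shared genes, 11.4% and 6.93%. Cholesterol genes and interferon-stimulated genes reach furthest to the left, keratins and collagens furthest to the right.

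*PAX8*, the transcription factor used to mark renal carcinoma, was expressed in both lines, with 178 ± 24.5 TPM in CAKi-1 and 239 ± 6.43 TPM in 786O, and was not called (log2 difference -0.43, SE 0.11, adjusted p = 0.00638). *VIM*, the intermediate filament that ccRCC expresses together with keratins, was high in both, with 3329.8 ± 106 against 4658 ± 117 TPM. Of the 23 renal transcription factors with values in both lines, 11 were called higher in 786O and 1 in CAKi-1, with a median log2 difference of -0.60 against -0.08 over all genes. *WT1*, which marks early nephron progenitors and podocytes, had 9.81, 9.02 and 7.84 TPM in 786O and 0.0548, 0.197, 0.037 and 0.065 TPM in CAKi-1. *IRX3*, a patterning factor of the tubule, had 0.337 ± 0.142 against 19.5 ± 0.474 TPM and *SALL1* 2.62 ± 0.529 against 26.5 ± 0.858 TPM. *FOXC1* was the member called higher in CAKi-1 (9.69 ± 0.617 against 2.72 ± 0.365 TPM). *PAX2*, another marker of renal carcinoma, had a value in 786O only (11.2 ± 0.456 TPM), and *HNF4A*, the master regulator of the mature proximal tubule, was near 0 in both (0.0329 and 0.0284 TPM).

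Of 22 proximal tubule genes, 6 were called higher in 786O and 1 in CAKi-1, and the others were not called. The brush border peptidase *ENPEP* was at 74.8, 76.2 and 78.3 TPM in 786O and 1.77, 1.15, 2.36 and 1.72 TPM in CAKi-1, so the lines lay 43.7 times apart. *PDZK1*, the scaffold that holds transporters in the brush border, was at 3.68 ± 0.922 against 129 ± 4.09 TPM, the peptidase *DPP4* at 8.15 ± 0.548 against 102 ± 1.63 TPM and *GGT1*, gamma-glutamyltransferase, at 16.5 ± 2.22 against 101 ± 6.82 TPM. *VCAM1*, an adhesion molecule seen on injured and scattered tubule cells, was the member higher in CAKi-1 (161 ± 72.2 against 45.7 ± 1.77 TPM), with a log2 difference of 1.69, and 1.18 without CAKi-1 replicates 3 and 4. The injury marker *HAVCR1* was high in both lines (246 ± 4.12 against 209 ± 4.04 TPM, not called) and so was the peptidase *ANPEP* (134 ± 10.9 against 98.1 ± 4.87 TPM, not called). The endocytic receptors *LRP2* (0.0414 and 0.0302 TPM) and *CUBN* (0.473 and 0.5 TPM) and the water channel *AQP1* (0.173 and 0.844 TPM) were all below 1 TPM in both lines. Among 11 genes of the distal nephron and collecting duct, 4 were called higher in 786O and 0 in CAKi-1. They were *MAL*, an apical membrane proteolipid (1.8 ± 0.475 against 38.5 ± 2.1 TPM), the kidney cadherin *CDH16* (0.531 ± 0.0528 against 6.39 ± 0.219 TPM), the sodium channel subunit *SCNN1A* (2.81 ± 0.729 against 15.6 ± 0.707 TPM) and the calcium buffer *CALB1* (0.418 ± 0.165 against 2.35 ± 0.725 TPM). *UMOD* and *AQP2*, the defining genes of the thick limb and the collecting duct, had no value in either line among the genes analysed here.

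Epithelial features did not fall on one side. The simple keratins *KRT18* and *KRT8* were higher in CAKi-1, with *KRT18* at 1211, 1105, 1012 and 786 TPM against 189, 178 and 187 TPM in 786O (log2 difference 2.45, SE 0.14, adjusted p = 1.8e-06) and *KRT8* at 1565 ± 220.0 against 649 ± 19.2 TPM (log2 difference 1.26, SE 0.11, adjusted p = 2.3e-05). *KRT7* (10.1 ± 1.02 against 3.94 ± 0.0311 TPM) and *KRT15* (16.6 ± 0.772 against 5.42 ± 0.564 TPM) were also called higher in CAKi-1, *KRT80* (18.5 ± 2.48 against 77.1 ± 3.12 TPM) and *KRT81* (0.435 ± 0.0973 against 3.67 ± 0.411 TPM) higher in 786O, and *KRT19* (232 ± 41.7 against 414 ± 7.06 TPM) was not called. Cell adhesion genes showed an exchange of members. *CDH1*, the E-cadherin of most epithelia, was under 1 TPM in both lines (0.449 and 0.107 TPM), and N-cadherin, *CDH2*, was present in both (72.6 ± 3.23 against 127 ± 3.54 TPM, not called). *CDH6*, the cadherin of the proximal tubule, had 226, 218 and 218 TPM in 786O and 10.04, 11.6, 8.96 and 6.13 TPM in CAKi-1 (log2 difference -4.47, SE 0.18, adjusted p = 3.2e-07). *CDH11* (0.234 ± 0.165 against 37.8 ± 1.54 TPM) and *CDH13* (2.58 ± 0.6 against 34.7 ± 1.98 TPM) shared that direction, as did *EPCAM* (4.37 ± 0.415 against 18 ± 0.626 TPM). The desmosomal genes *JUP* (25.3 ± 12.1 against 1.74 ± 0.188 TPM), *PKP2* (10.8 ± 0.851 against 0.402 ± 0.154 TPM) and *DSP* (7.29 ± 0.58 against 0.0779 ± 0.115 TPM) and the tight junction gene *OCLN* (4.59 ± 0.956 against 0.415 ± 0.205 TPM) were higher in CAKi-1 along with *CLDN11*. In all, 8 of 30 junction genes were called higher in CAKi-1 and 7 in 786O.

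Of 20 mesenchymal genes, 7 were called higher in CAKi-1 and 1 in 786O. The actin-associated genes *TPM2* (270.4 ± 14.2 against 20.2 ± 0.711 TPM) and *TAGLN* (34.2 ± 5.36 against 3.38 ± 0.849 TPM), the receptor *PDGFRB* (15 ± 2.86 against 0.421 ± 0.0754 TPM) and the hyaluronan receptor *CD44* (1341 ± 194 against 352 ± 2.31 TPM) were higher in CAKi-1. The transcription factors that drive mesenchymal change divided. *SNAI2* was higher in 786O (1.49 ± 0.111 against 29.8 ± 0.863 TPM), *TWIST1* had a value in CAKi-1 only (8.48 ± 0.918 TPM), and *ZEB1* was not called (15.1 ± 0.811 against 16.1 ± 0.79 TPM). *PDGFRB* and *COL1A1* (10.6 ± 1.16 against 3.61 ± 1.2 TPM) are also markers of fibroblasts. Of the 19 markers of other cell types, 9 had values in both lines and 2 were called, both higher in CAKi-1. The leukocyte marker *PTPRC* was at 0.385 and 0.215 TPM, the endothelial *PECAM1* at 0.373 and 1.12 TPM, the fibroblast *DCN* at 0.515 and 0.237 TPM and *LUM* at 3.75 and 8.19 TPM, while *COL3A1*, *CDH5*, *VWF*, *CD3E* and *NPHS1* had no value in either line among the genes analysed here. Summed over the 9 markers, the level was between 90.9 and 97.3 TPM in the CAKi-1 libraries and between 60.1 and 66.6 TPM in those of 786O, most of it *CD68* (59.2 ± 2.54 against 44.5 ± 0.641 TPM), a lysosomal protein that is not specific to macrophages. Whether other cells had a part in any difference was not tested. In RNA from bulk cultures, fewer cells that express a gene and less RNA of it per cell cannot be told apart.

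Of the 15 genes of the *VHL* and HIF machinery, 4 were called higher in 786O and 1 in CAKi-1. *VHL* mRNA (chr3:10141778-10153667, hg38) was present in both lines, at 19.9, 20.6, 22.4 and 25.4 TPM in CAKi-1 and 31.5, 31.5 and 30.7 TPM in 786O, and was not called (log2 difference -0.49, SE 0.081, adjusted p = 9.0e-04). The level of mRNA does not show whether the protein works. *EPAS1* (chr2:46293667-46386697), which encodes HIF2 alpha, was at 93.2, 88.4 and 85.6 TPM in 786O and 27, 24.9, 28.8 and 33 TPM in CAKi-1, 3.13 times as high in 786O (log2 difference -1.62, SE 0.091, adjusted p = 1.9e-06). *HIF1A* (chr14:61695513-61748259) was expressed in both, at 284, 273, 289.6 and 299.8 TPM in CAKi-1 and 192, 187 and 180.2 TPM in 786O, without overlap between the lines but below the threshold of size (log2 difference 0.62). *EGLN3*, the prolyl hydroxylase that marks HIF for *VHL* and is itself induced by HIF, had 29.2, 26.8 and 26.3 TPM in 786O and stayed under 1 TPM in CAKi-1, at 0.897, 0.951, 0.682 and 0.811 TPM. *BHLHE40*, a HIF-induced repressor, was higher in 786O (26.6 ± 1.54 against 181 ± 4.45 TPM), and so was *ARNT2*, a partner of the alpha subunits (1.02 ± 0.115 against 3.55 ± 0.552 TPM). *HIF3A*, another alpha subunit, was higher in CAKi-1 (3.34 ± 0.87 against 0.163 ± 0.00817 TPM). The other 10 genes, among them the *VHL* ligase subunits *ELOB* (244 ± 5.68 against 223 ± 1.59 TPM) and *CUL2* (77.9 ± 2.77 against 44 ± 1.08 TPM), were not called.

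**Figure D3:**
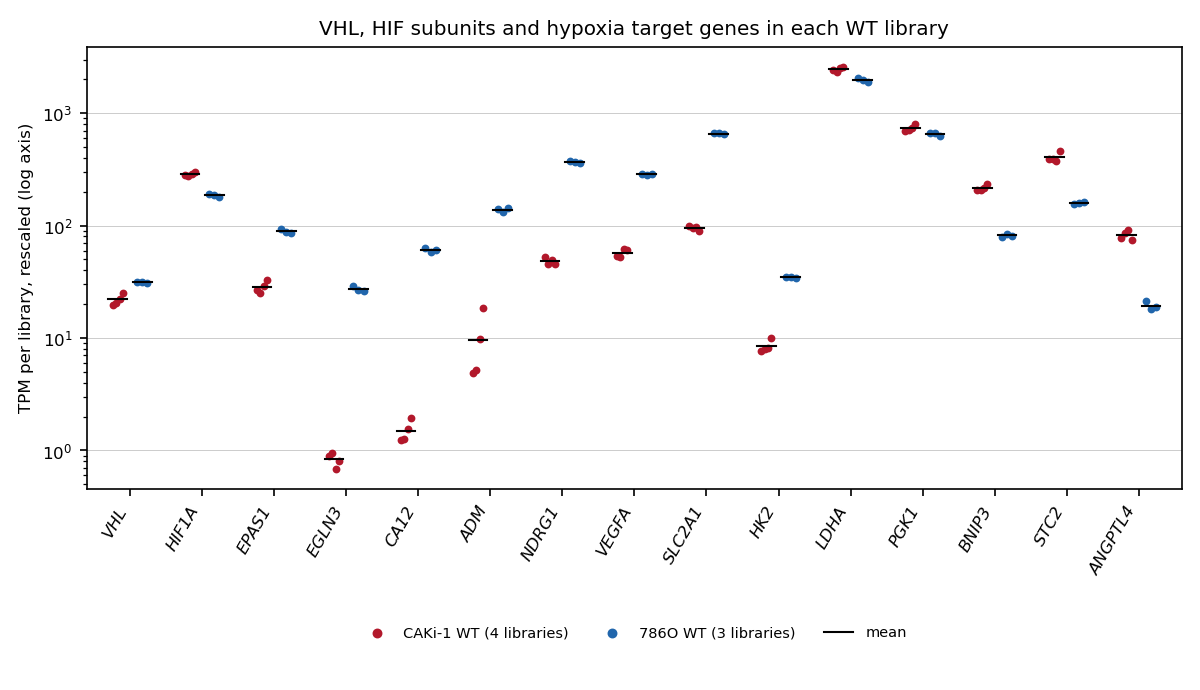
Expression of VHL, HIF genes and HIF targets in each of the 4 CAKi-1 (red) and 3 786O (blue) libraries, in TPM on a log axis, with black bars for the means. From EPAS1 to HK2 the 786O libraries lie above every CAKi-1 library, LDHA and PGK1 lie close together, and from BNIP3 to ANGPTL4 the CAKi-1 libraries lie above.

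Hypoxia target genes were called in both directions, with *ANGPTL4* among those higher in CAKi-1. Of 29 targets outside glycolysis, 12 were called higher in 786O and 4 in CAKi-1 (median log2 difference -0.41, against -0.08 over all shared genes). In all, 55.2% of these targets were called, against 18.4% of all shared genes, whose calls also went more often toward 786O (11.4% against 6.93%). *VEGFA*, the main angiogenic factor, had 291, 285 and 290.2 TPM in 786O and 53.9, 52.4, 61.6 and 60.4 TPM in CAKi-1, a ratio of 5.05. The membrane carbonic anhydrase *CA12* had 63.3, 58 and 60.9 TPM in 786O and 1.24, 1.27, 1.55 and 1.96 TPM in CAKi-1, and *CA9*, the classical marker of *VHL* loss, had a value in 786O only (7.54 ± 0.774 TPM). *ADM*, the vasodilator adrenomedullin, had 141, 133 and 143 TPM in 786O and 4.84, 5.24, 9.72 and 18.5 TPM in CAKi-1. *NDRG1* (48.5 ± 3.45 against 366 ± 8.57 TPM), *DDIT4*, an inhibitor of mTOR signalling (119 ± 46.4 against 576 ± 5.27 TPM), the growth factor carrier *IGFBP3* (39.9 ± 8.78 against 332 ± 9.22 TPM), the desaturase *SCD* (65.4 ± 7.39 against 566 ± 11.9 TPM) and *EDN1*, endothelin (0.846 ± 0.117 against 9.46 ± 0.34 TPM), were higher in 786O as well. *CCND1*, cyclin D, a target that depends on HIF2 in renal cells, was at 269 ± 4.09 TPM in 786O and 143 ± 11.1 TPM in CAKi-1 and was not called (log2 difference -0.91, adjusted p = 6.2e-06). In the opposite direction, the mitophagy receptor *BNIP3* (216 ± 12.9 against 81.8 ± 2.78 TPM) and the secreted glycoprotein *STC2* (404 ± 38.6 against 158 ± 2.81 TPM) joined *ANGPTL4*.

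*ANGPTL4* (chr19:8363289-8374370, hg38) was at 77.3, 85.7, 90.6 and 73.9 TPM in the CAKi-1 libraries and 21.2, 18.2 and 18.7 TPM in the 786O libraries. Every CAKi-1 library was above every 786O library, and the ratio of the means was 4.22 (log2 difference 2.02, SE 0.086, adjusted p = 4.6e-07). By the methods of the study, the 786O WT cells are combined clones chosen by their *ANGPTL4* RNA. The part of this choice in the difference was not tested. The size of this difference depended on the gene used as a reference. *GAPDH* was itself called higher in CAKi-1 (6669 ± 73.5 against 3323 ± 99.9 TPM, log2 difference 1.005, SE 0.04, adjusted p = 2.9e-07), right at the threshold of size and not called without CAKi-1 replicate 1 (log2 difference 0.997) or without 786O replicate 2 (0.987) or 3 (0.999). *PPIA*, cyclophilin A, differed the other way (4288 ± 25 against 5914 ± 53.6 TPM, not called). Per 1000 TPM of *GAPDH*, *ANGPTL4* was 12.3 ± 1.22 in CAKi-1 and 5.83 ± 0.31 in 786O, a ratio of 2.11. Per 1000 TPM of *PPIA* it was 19.1 ± 1.85 and 3.28 ± 0.274, a ratio of 5.83. The direction held with both references. Of the 8 genes often used as references in PCR, *ACTB* (1643 ± 84.1 against 2593 ± 111 TPM), *RPLP0* (3401 ± 114 against 1986 ± 18.9 TPM), *HPRT1* (117 ± 2.96 against 77.9 ± 1.35 TPM), *TBP* (10.6 ± 0.92 against 14.7 ± 0.987 TPM) and *TUBA1B* (2937 ± 95 against 2772 ± 41.4 TPM) were not called.

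Most glycolysis genes were not called. The 3 called higher in 786O were *SLC2A1*, *HK2* and *PFKFB4*. *SLC2A1*, the main glucose transporter, had 664, 660.0 and 650.3 TPM in 786O and 99.4, 95.8, 96.9 and 89.1 TPM in CAKi-1, a ratio of 6.91 (log2 difference -2.78, SE 0.047, adjusted p = 6.4e-09). *HK2*, the inducible hexokinase, was at 8.46 ± 1.02 against 34.9 ± 0.401 TPM, and *PFKFB4*, which makes the activator of phosphofructokinase, at 10.5 ± 0.887 against 51.4 ± 0.814 TPM. Further down, *LDHA* (2464 ± 105 against 1976 ± 74.6 TPM), *PGK1* (737 ± 51.4 against 649 ± 22.7 TPM) and *ENO1* (3202 ± 95 against 4059 ± 46.9 TPM) were high in both lines and not called, and the pyruvate dehydrogenase kinase *PDK1*, at 12.4 ± 0.83 against 9.58 ± 0.305 TPM, was not called either. *LDHB* (1952 ± 51.3 against 699 ± 9.53 TPM) and the aldolase of brain and hypoxic cells, *ALDOC* (21.2 ± 1.33 against 1.42 ± 0.431 TPM), were higher in CAKi-1 with *GAPDH*. In total 3 of 23 glycolysis genes were called higher in CAKi-1 and 3 in 786O.

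Genes for the handling of stored fat pointed in both directions. *LIPA* (chr10:89213569-89414557, hg38), whose product is lysosomal acid lipase, had 107, 108 and 99.1 TPM in 786O and 25.9, 25, 25 and 21.8 TPM in CAKi-1, 4.28 times as high in 786O (log2 difference -2.06, SE 0.067, adjusted p = 1.3e-07). By this annotation *LIPA* spans *IFIT1*, *IFIT2* and *IFIT3* on the opposite strand, and whether strand was used in the counting is not stated. Of the extracellular lipases, *LIPG*, endothelial lipase, was at 54, 55 and 51.4 TPM in 786O and 0.757, 0.83, 1.57 and 2.36 TPM in CAKi-1, and *LPL*, the lipase that *ANGPTL4* is best known to inhibit, had a value in CAKi-1 only, a mean of 0.094 ± 0.0551 TPM. *PLIN2*, the coat protein of lipid droplets and a HIF2 target, was called higher in 786O (142 ± 28.4 against 285 ± 7.6 TPM, log2 difference -1.02), but not without CAKi-1 replicate 1 (-0.96) or 2 (-0.94) or 786O replicate 1 (-0.996). *FITM2*, which shapes droplets (2.18 ± 0.233 against 6.52 ± 0.477 TPM), the last enzyme of triglyceride synthesis *DGAT1* (11.8 ± 1.17 against 28.6 ± 2.36 TPM) and *ABHD5*, the activator of adipose triglyceride lipase (12.4 ± 1.12 against 29.4 ± 0.549 TPM), were higher in 786O. In CAKi-1, the apolipoproteins *APOE* (98.2, 103, 92 and 94.2 TPM against 2.2, 1.64 and 2.75 TPM in 786O) and *APOC1* (2.85 ± 1.03 against 0.224 ± 0.143 TPM), the lipase inhibitor *G0S2* (121, 195, 289 and 594 TPM against 70.8, 77.5 and 75.8 TPM in 786O) and *DGAT2* (8.67 ± 0.741 against 2.75 ± 0.206 TPM) were higher. The log2 difference of *G0S2* was 1.74, and 1.03 without CAKi-1 replicates 3 and 4. The lipase *PNPLA2* itself was not called (72.5 ± 6.87 against 93.7 ± 2.92 TPM). Of 35 genes, 8 were called higher in 786O and 6 in CAKi-1, and the first count was 5 when libraries were scaled by the median ratio of genes.

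In fatty acid oxidation, several regulators and few enzymes of the mitochondrial cycle were called. *PPARA*, the receptor that switches on oxidation genes, was at 17.2, 13.1 and 15 TPM in 786O and 2.55, 2.91, 2.48 and 1.82 TPM in CAKi-1 (log2 difference -2.23, SE 0.13, adjusted p = 2.0e-06), and *PPARG* at 1.61 ± 0.597 against 14.1 ± 5.48 TPM. The insulin receptor substrate *IRS2* was at 48.8, 47.9 and 45.5 TPM in 786O and 4.31, 4.59, 3.76 and 4.95 TPM in CAKi-1, and *IRS1* at 6.2 ± 0.573 against 20.7 ± 0.496 TPM. The coactivator *PPARGC1A* was low in both and not called (0.501 ± 0.252 against 1.76 ± 0.476 TPM, adjusted p = 0.0012). Of the enzymes that carry long fatty acids into mitochondria, *CPT1A* was near 1 TPM in every library, with 0.987, 1.12, 0.913 and 0.793 TPM in CAKi-1 and 1.01, 1.11 and 0.793 TPM in 786O. *CPT1B* was higher in 786O (2.37 ± 0.66 against 30.9 ± 3.82 TPM) and *CPT1C* in CAKi-1 (7.9 ± 0.885 against 0.731 ± 0.12 TPM). *ACSL5*, an acyl-CoA synthetase (13.7 ± 1.24 against 2.09 ± 0.309 TPM), and *ECHS1*, a hydratase of the oxidation cycle (259.8 ± 9.25 against 90.2 ± 1.68 TPM), were higher in CAKi-1, and *ECI1*, an isomerase (58.6 ± 1.35 against 134 ± 0.731 TPM), was higher in 786O. The dehydrogenases *ACADM* (37.7 ± 1.72 against 47.3 ± 2.99 TPM) and *ACADVL* (182 ± 8.84 against 271 ± 4.73 TPM) and the trifunctional protein *HADHA* (112 ± 1.57 against 95.2 ± 2.01 TPM) were not called. The list held 6 calls toward 786O and 3 toward CAKi-1 among 30 genes.

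The cholesterol pathway gave the most one-sided list. Of 31 genes of synthesis, uptake and efflux, 22 were called higher in 786O and 0 in CAKi-1, with a median log2 difference of -1.15. The count was 19 after quantile normalization and 17 after median-ratio scaling. *HMGCS1*, the synthase at the head of the pathway, was at 152, 153 and 145 TPM in 786O and 28.1, 29.99, 28.1 and 29.6 TPM in CAKi-1 (log2 difference -2.33, SE 0.044, adjusted p = 1.0e-08). The epoxidase *SQLE* was at 30.7 ± 1.64 against 113 ± 4.31 TPM, *LSS*, which closes the sterol rings, at 25.3 ± 1.78 against 104 ± 7.08 TPM, and the demethylase *CYP51A1* at 18.1 ± 1.04 against 79.97 ± 3.79 TPM. *INSIG1*, which retains the sterol sensor in the endoplasmic reticulum, was at 39.9 ± 5.69 against 171 ± 7.03 TPM, and *SREBF2*, the transcription factor that drives the pathway, at 28.8 ± 1.74 against 84.4 ± 3.47 TPM. The efflux pump *ABCA1* (13.1 ± 0.938 against 22.4 ± 0.81 TPM) and the fatty acid synthase *FASN* (148 ± 7.6 against 150.3 ± 7.53 TPM) were not called. In the lysosome, where LDL cholesterol is freed by the *LIPA* product, the carrier *NPC2* was called higher in 786O (109 ± 10.3 against 243 ± 3.94 TPM) and its partner *NPC1* was not (56 ± 2.92 against 105 ± 3.44 TPM).

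Of 33 lysosomal genes, *LIPA*, *NPC1* and *NPC2* included, 9 were called higher in 786O and 1 in CAKi-1. *CTSD*, a major aspartic protease, was at 2689.9, 2577 and 2575 TPM in 786O and 482, 469.6, 464 and 478 TPM in CAKi-1, the cathepsin *CTSZ* at 169 ± 2.96 against 733 ± 3.34 TPM, the glucuronidase *GUSB* at 24 ± 1.84 against 88.5 ± 2.42 TPM and the peptidase *TPP1* at 17.6 ± 1.89 against 63 ± 2.45 TPM. *CTSS* was the member higher in CAKi-1 (38.3 ± 14.7 against 6.7 ± 0.987 TPM), and there were 3 such members without CAKi-1 replicate 4, without replicates 3 and 4, with the replicate number as a block (a fit that drops CAKi-1 replicate 4), after quantile normalization and after median-ratio scaling, and 4 with a pseudocount of 0.1. *LAMP1* (208 ± 3.89 against 175 ± 1.64 TPM), the saposin precursor *PSAP* (1317 ± 47.5 against 1126 ± 29.6 TPM) and the transcription factors *TFEB* (9.26 ± 0.94 against 7.62 ± 0.219 TPM) and *TFE3* (55.7 ± 2.33 against 45.1 ± 1.24 TPM) were not called.

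Amino acid genes included *SLC38A5*, the largest difference of any list member. Of 30 targets of the stress factor ATF4, serine synthesis genes and amino acid transporters, 14 were called higher in 786O and 4 in CAKi-1. Beside *SLC38A5*, the transporters *SLC1A4* (3.27 ± 0.248 against 42 ± 1.81 TPM), *SLC7A7* (4.63 ± 0.283 against 47.8 ± 2.78 TPM) and the cystine carrier *SLC7A11* (1.99 ± 0.28 against 11.7 ± 0.442 TPM) were higher in 786O, as were the stress pseudokinase *TRIB3* (14 ± 1.55 against 169 ± 2.51 TPM) and asparagine synthetase, *ASNS* (16 ± 1.01 against 76.6 ± 1.55 TPM). *PHGDH*, the first enzyme of serine synthesis, was the reverse, with 49.8, 52.6, 52.3 and 49.1 TPM in CAKi-1 and 0.503, 0.341 and 0.482 TPM in 786O (log2 difference 5.17, SE 0.055, adjusted p = 1.2e-09). The next enzymes of the same route, *PSAT1* (71.9 ± 4.69 against 170.2 ± 4.64 TPM) and *PSPH* (26.6 ± 2.1 against 100.1 ± 3.32 TPM), were called higher in 786O, so the 3 steps did not share a direction. *SLC7A2*, a transporter of arginine (6.24 ± 0.591 against 0.261 ± 0.106 TPM), and the stress genes *ATF3* (12.5 ± 1.6 against 3.89 ± 0.456 TPM) and *GDF15* (283 ± 140.3 against 109 ± 1.81 TPM) were higher in CAKi-1, and the *GDF15* call was lost without CAKi-1 replicate 4 (log2 difference 0.95) and without replicates 3 and 4 (0.76).

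Interferon-stimulated genes, many of which protect cells against viruses, were more often called higher in 786O than in CAKi-1, in untreated cells. Of 36 such genes, 18 were called higher in 786O and 3 in CAKi-1, with a median log2 difference of -0.96, and quantile normalization left 15 toward 786O. *IFI6* was at 558, 557 and 568 TPM in 786O and 31.6, 26.7, 26.2 and 29.6 TPM in CAKi-1 (log2 difference -4.25, SE 0.069, adjusted p = 5.0e-09). *ISG15*, a ubiquitin-like modifier, was at 235, 214 and 224 TPM in 786O and 35.3, 34.7, 36.1 and 41.6 TPM in CAKi-1. *IFIT1*, which binds foreign RNA, was at 2.58 ± 0.421 against 27.4 ± 1.73 TPM, *IFI44* at 9.58 ± 1.58 against 57.9 ± 0.844 TPM, the antiviral GTPase *MX1* at 9.57 ± 0.385 against 46.6 ± 1.87 TPM and *IRF9*, the DNA-binding part of the interferon factor complex, at 14.9 ± 1.94 against 86.8 ± 5.4 TPM. *ISG20* (7.24 ± 1.21 against 2.49 ± 0.194 TPM), *IFITM2* (22.3 ± 3.21 against 9.44 ± 0.252 TPM) and *GBP2* (7.64 ± 1.77 against 2.83 ± 0.617 TPM) were higher in CAKi-1, and *GBP2* was not called without CAKi-1 replicates 3 and 4 (log2 difference 0.91).

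Promoters of 4 of these genes are shown because letters of the element known for this class can be read in them. The letters GAAANNGAAA, the core of the interferon-stimulated response element, were searched on both strands from 250 bases before to 50 bases after the start of each gene in RefSeq sequences of GRCh38.p14. They occurred in 350 of 11714 promoters of shared genes (2.99%). Of the 36 list members 27 had a promoter sequence, and the letters occurred in 13 of the 15 that were called higher in 786O and in 5 of the other 12. Among those 5 is *ISG20*, which was called higher in CAKi-1. The class is known for this element, so a share above 2.99% follows from the choice of genes. Its part in the differences between the lines was not tested. Below are the 250 bases before the start of 4 members called higher in 786O, 5′ to 3′ on the strand of the gene, with the matched letters, or their reverse complement TTTCNNTTTC, in capitals. They are *ISG15* (chr1:1013247-1013496, plus strand), *IFI6* (chr1:27672193-27672442, minus strand), *IFIT1* (chr10:89392373-89392622, plus strand) and *IFI44* (chr1:78649539-78649788, plus strand). A match is a description of the sequence and not a measured binding site.
ISG15: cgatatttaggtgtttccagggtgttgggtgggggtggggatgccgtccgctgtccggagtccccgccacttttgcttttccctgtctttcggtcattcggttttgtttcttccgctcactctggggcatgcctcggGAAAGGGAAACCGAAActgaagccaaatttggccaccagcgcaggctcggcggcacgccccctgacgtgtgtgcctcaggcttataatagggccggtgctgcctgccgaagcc
IFI6: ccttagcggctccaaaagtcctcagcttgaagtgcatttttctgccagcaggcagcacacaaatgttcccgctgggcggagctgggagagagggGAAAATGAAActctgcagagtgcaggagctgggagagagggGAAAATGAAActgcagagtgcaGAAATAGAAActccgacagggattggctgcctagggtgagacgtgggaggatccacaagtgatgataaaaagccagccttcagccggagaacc
IFIT1: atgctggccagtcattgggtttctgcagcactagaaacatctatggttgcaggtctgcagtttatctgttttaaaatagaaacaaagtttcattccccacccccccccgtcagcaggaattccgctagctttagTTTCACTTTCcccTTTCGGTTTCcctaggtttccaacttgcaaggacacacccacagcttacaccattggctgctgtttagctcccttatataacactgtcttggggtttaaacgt
IFI44: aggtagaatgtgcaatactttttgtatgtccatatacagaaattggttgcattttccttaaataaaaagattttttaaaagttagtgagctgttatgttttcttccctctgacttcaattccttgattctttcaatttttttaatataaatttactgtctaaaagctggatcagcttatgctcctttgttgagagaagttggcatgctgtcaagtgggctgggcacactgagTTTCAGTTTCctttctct
*IFI6* held 3 matches, *ISG15* and *IFIT1* held 2 each, those of *ISG15* overlapping, and *IFI44* held 1. A like search for TCACNCCAC, letters of a sterol response element, over the promoters of the cholesterol genes found 1 match among 17 members called higher in 786O, in *SREBF2*, and 0 among the 7 others, against 133 of 11714 promoters (1.14%).

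Antigen presentation genes overlap in regulation with the interferon genes. *HLA-C* was at 1154, 1170.2 and 1156 TPM in 786O and 129.6, 115, 135 and 136 TPM in CAKi-1 (log2 difference -3.16, SE 0.065, adjusted p = 1.6e-08), and *HLA-B* at 354 ± 27.6 against 1106 ± 8.23 TPM. These genes vary between people and share sequence, so alignment to 1 reference can miss reads of some alleles and move reads between genes, and their part in the differences was not tested. Their light chain *B2M* was at 1142 ± 81.1 against 2279 ± 62.7 TPM and fell just short of a call (log2 difference -0.998, and -1.085 with a call without CAKi-1 replicates 3 and 4), the peptide transporter subunit *TAP1* was at 26.1 ± 0.223 against 63.7 ± 2.56 TPM and the loading factor *TAPBP* at 64.1 ± 6.26 against 163 ± 6.6 TPM. *TAP2* (89.2 ± 14.3 against 34.6 ± 4.07 TPM) and the trimming peptidase *ERAP1* (60.8 ± 3.5 against 17.3 ± 0.732 TPM) were higher in CAKi-1. Of 19 genes, 6 were called higher in 786O and 2 in CAKi-1.

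The CAKi-1 libraries disagreed among themselves in several cytokine genes. Among genes with a mean of at least 5 TPM in CAKi-1, the 5 with the largest SD of log2(TPM + 1) were *CXCL8*, *CXCL1*, *CSF2*, *CCL20* and *CXCL5*. *CXCL8*, the neutrophil chemokine interleukin 8, was at 7.74, 12.5, 290.4 and 1388 TPM in CAKi-1 replicates 1 to 4 and at 16.2, 18.5 and 15.5 TPM in 786O. Replicates 1 and 2 were below all 786O libraries and replicates 3 and 4 above them, and the difference was not called (log2 difference 2.23, adjusted p = 0.272). *CXCL1* was at 25.3, 50.1, 767 and 3034 TPM in CAKi-1 and 10.4, 9.14 and 10.1 TPM in 786O, higher in all 4 libraries. *CXCL2*, which acts on the same receptor, was at 17.4, 24.5, 117 and 362 TPM against 4.51, 5.12 and 4.4 TPM, and *CSF2*, the growth factor of granulocytes and macrophages, at 5.2, 10.7, 83.2 and 244 TPM against 1.8, 1.67 and 1.72 TPM. *IL6* was at 5.55, 11, 34.6 and 149 TPM in CAKi-1 and 29.98, 34.3 and 33.7 TPM in 786O, *CXCL5* at 15.6, 20.2, 97.4 and 322 TPM against 18.9, 19.1 and 18.7 TPM, and *CCL20* at 0.526, 0.932, 9.43 and 41.9 TPM against 1.14, 0.894 and 0.623 TPM. In each of these genes replicate 4 was the highest and replicate 3 the second highest of the CAKi-1 libraries. *CCL2* had a value in 786O only (8.67 ± 1.33 TPM).

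With CAKi-1 replicates 3 and 4 left out, the log2 difference of *CXCL1* went from 4.45 to 1.76, of *CXCL2* from 3.56 to 1.94 and of *CSF2* from 3.68 to 1.64, and all 3 were still called. That of *CXCL8* went to -0.70, of *CXCL5* to -0.08 and of *CCL20* to -0.13, none of them called, and *IL6* went from -0.40 to -1.92 and was then called higher in 786O. The calls of *CXCL1* and *CSF2* were also lost without CAKi-1 replicate 3 alone (adjusted p = 0.0811 and 0.0608) and without any single 786O library (adjusted p from 0.0786 to 0.0811 and from 0.0616 to 0.0635). Of 23 cytokine genes, 7 were called higher in CAKi-1 and 6 in 786O. The first count was 4 without CAKi-1 replicate 3 or without any 1 of the 786O libraries, and 6 without CAKi-1 replicates 3 and 4 together. Stable members were *IL18*, at 151, 135, 149.8 and 183 TPM in CAKi-1 and 18.7, 18.9 and 18.9 TPM in 786O, *TNFSF10*, which encodes the death ligand TRAIL, higher in 786O at 413, 418 and 393 TPM against 17.5, 14.2, 20.1 and 20.5 TPM in CAKi-1, *IL32* (62.2 ± 18 against 412 ± 2.61 TPM) and *CCL28* (2.0 ± 0.326 against 15.3 ± 0.922 TPM). *CSF1*, the growth factor of macrophages, was higher in 786O (59.5 ± 26.1 against 157 ± 6.64 TPM).

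**Figure D4:**
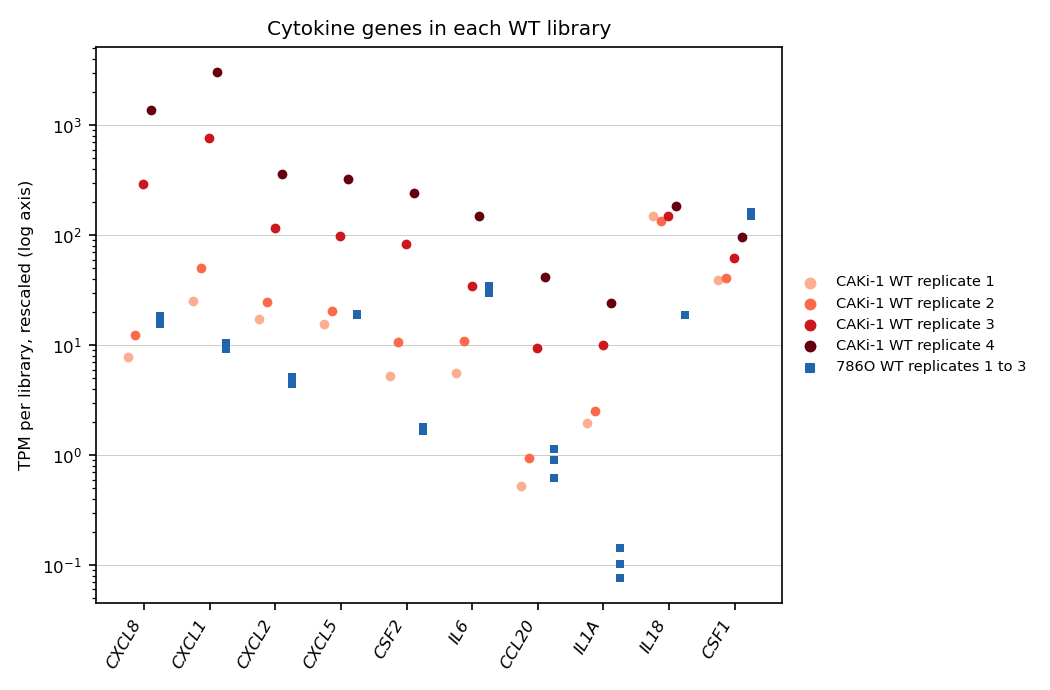
Expression of 10 cytokine genes in each CAKi-1 library (circles, lighter to darker red for replicates 1 to 4) and each 786O library (blue squares), in TPM on a log axis. For CXCL8, CXCL5, IL6 and CCL20 the 786O libraries lie between the CAKi-1 libraries or, for CXCL5 and CCL20, near the lower pair, while IL18 and CSF1 separate the lines.

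The same pair of libraries held most of the widely spread genes of CAKi-1. Among 10030 genes with a mean of at least 5 TPM in CAKi-1, the median coefficient of variation was 5.51%, and 31 genes had an SD of log2(TPM + 1) above 1. In 27 of the 31 both replicates 3 and 4 lay above both others, and in 24 replicate 4 was the highest. In 786O the median was 4.00% over 10367 genes, and 1 gene, *MORN2* (13.3, 2.45 and 1.43 TPM), had an SD above 1. *MEF2C* (6.06, 2.31 and 9.67 TPM), *SMIM11* (13.7, 24.1 and 6.74 TPM, called higher in 786O but not without CAKi-1 replicate 2 or without 786O replicate 1 or 2) and the pseudogene *RNA5SP82* (23.3, 9.31 and 8.5 TPM) followed. What set replicates 3 and 4 apart is not stated in the sources used here.

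Growth factor genes were more often higher in CAKi-1, 10 of 30 against 6 toward 786O. The receptor *EGFR* was at 53.7 ± 1.81 against 91 ± 3.01 TPM and was not called, while its ligands *AREG* (129.9, 153, 146 and 175 TPM against 11.3, 11.2 and 10.6 TPM in 786O), *EREG* (269 ± 79.7 against 26.6 ± 0.173 TPM) and *HBEGF* (30.1 ± 8.39 against 3.84 ± 0.147 TPM) were higher in CAKi-1 and *TGFA* (65.3 ± 10.9 against 139.8 ± 3.62 TPM) was higher in 786O, though not called without CAKi-1 replicates 3 and 4 (log2 difference -0.91). *MET*, the receptor of hepatocyte growth factor, was at 284 ± 14.8 against 140.4 ± 5.16 TPM, called with a log2 difference of 1.01 and not called without CAKi-1 replicate 1 (0.99) or without 786O replicate 2 (0.996) or 3 (0.99). *FGFR2* was at 14.8, 14.6 and 15 TPM in 786O and 0.0459, 0.0315, 0.0901 and 0.0116 TPM in CAKi-1. The ligands *PDGFA* (1.98 ± 0.374 against 15.3 ± 0.848 TPM) and *PDGFB* (4.6 ± 1.16 against 27.7 ± 1.12 TPM) were higher in 786O and *PDGFRB*, the receptor of the *PDGFB* product, in CAKi-1. *PDGFRA*, the receptor of the *PDGFA* product, had a value in CAKi-1 only (0.23 ± 0.146 TPM).

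Matrix genes differed in both directions, member by member. *FN1*, fibronectin, whose assembly depends on *VHL* in renal cells, was at 4337, 4129 and 4179 TPM in 786O and 186, 203, 229 and 296 TPM in CAKi-1, 18.5 times as high in 786O (log2 difference -4.22, SE 0.15, adjusted p = 1.7e-07). *COL6A3* (10.5 ± 2.04 against 320.3 ± 9.05 TPM) and *COL7A1* (27.2 ± 1.79 against 206 ± 7.22 TPM) were the 2 collagens called higher in 786O. In CAKi-1 8 of 21 collagens were higher, among them the basement membrane chains *COL4A1* (219 ± 11.2 against 81.5 ± 2.22 TPM) and *COL4A2* (311 ± 15.8 against 98.6 ± 3.98 TPM) and the fibrillar *COL5A1* (9.62 ± 1.16 against 0.955 ± 0.231 TPM) and *COL5A2* (3.34 ± 0.847 against 0.449 ± 0.152 TPM). *COL16A1* (15.1 ± 5.18 against 4.57 ± 0.578 TPM) was called in the same direction. The pair of nidogens, which link laminin to collagen IV, changed places. *NID1* was at 48.8, 48.9, 51.3 and 48.1 TPM in CAKi-1 and 0.0312, 0.0416 and 0.0368 TPM in 786O, and *NID2* at 0.833, 0.609, 0.645 and 0.697 TPM in CAKi-1 and 101, 94.7 and 94.1 TPM in 786O. The laminin chains *LAMA1* (24.6 ± 0.92 against 0.315 ± 0.0624 TPM) and *LAMA4* (27.9 ± 1.9 against 0.612 ± 0.222 TPM) were higher in CAKi-1, and *LAMA3* (22.9 ± 3.56 against 76.5 ± 1.37 TPM), *LAMA5* (13.6 ± 1.27 against 35.7 ± 2.27 TPM) and *LAMB2* (31.9 ± 3.31 against 111 ± 5.28 TPM) higher in 786O. Of the integrins, *ITGB3* (20.4 ± 3.96 against 229.8 ± 1.2 TPM) and the leukocyte chain *ITGB2* (0.142 ± 0.0722 against 7.7 ± 1.16 TPM) were higher in 786O, and *ITGB1*, the common beta chain, was not called (1426 ± 42.9 against 1004 ± 6.34 TPM). Over the 35 genes of fibronectin, laminins, integrins and nidogens, 11 were called higher in 786O and 6 in CAKi-1.

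For matrix breakdown, the called genes of the plasminogen system were higher in CAKi-1 and the called metalloproteinases in 786O. *PLAU*, urokinase, was at 437, 473, 559 and 594 TPM in CAKi-1 and 74.7, 72.6 and 73.1 TPM in 786O, and *PLAT* at 12.9 ± 1.73 against 3.31 ± 0.505 TPM. *TIMP2* was also higher in CAKi-1 (444 ± 18.2 against 105 ± 2.43 TPM), while its protease partners *MMP2* (39.5 ± 0.99 against 201 ± 6.74 TPM) and *MMP14* (103 ± 5.56 against 364 ± 11.2 TPM) were higher in 786O with *ADAMTS5* (0.097 ± 0.061 against 8.62 ± 0.278 TPM), *ADAMTS9* (1.64 ± 1.12 against 15.5 ± 0.259 TPM) and *TIMP4* (0.757 ± 0.219 against 6.86 ± 0.411 TPM). *TIMP1* was not called (248 ± 9.38 against 297 ± 11.5 TPM). The list of 32 held 7 calls toward 786O and 4 toward CAKi-1.

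Prostaglandin and adenosine genes gave 7 calls toward 786O and 3 toward CAKi-1 among 22. Beside *PTGDS*, 786O had higher levels of prostacyclin synthase, *PTGIS* (0.494 ± 0.143 against 11.2 ± 0.199 TPM), and of the prostaglandin E receptors *PTGER2* (0.541 ± 0.154 against 18.9 ± 1.81 TPM) and *PTGER4* (0.266 ± 0.0782 against 9.04 ± 0.609 TPM). The constitutive cyclooxygenase *PTGS1* (6.32 ± 0.779 against 0.827 ± 0.18 TPM), adenosine deaminase, *ADA* (33.3 ± 1.42 against 13.3 ± 0.825 TPM), and CD73, encoded by *NT5E* (103 ± 14.9 against 47.1 ± 1.42 TPM), were higher in CAKi-1, and *NT5E* was not called without CAKi-1 replicates 3 and 4 (log2 difference 0.93). The inducible *PTGS2* was low in both (1.82 ± 1.13 against 0.885 ± 0.168 TPM, not called).

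Redox and metal genes were mixed within families of near-identical members. Of 30 targets of the oxidant sensor NRF2 and aldo-keto reductases, 8 were called higher in 786O and 4 in CAKi-1. *AKR1B1*, aldose reductase, was at 924 ± 408 against 3374 ± 36.3 TPM, *AKR1B10* at 3.06 ± 0.199 against 22.5 ± 0.892 TPM and the carbonyl reductase *CBR1* at 43.8 ± 3.23 against 219 ± 4.89 TPM. The quinone reductase *NQO1* (513 ± 20.03 against 207 ± 6.51 TPM), *TXNRD1* (460.1 ± 25.6 against 159 ± 2.12 TPM) and *OSGIN1* (14.4 ± 0.468 against 6.0 ± 0.294 TPM) were higher in CAKi-1. *AKR1C1* (8.45 ± 1.51 against 23.2 ± 1.59 TPM) was called higher in 786O and *AKR1C2* (5.74 ± 0.585 against 1.78 ± 0.286 TPM) in CAKi-1, but these genes are nearly identical and reads can be assigned to either. The same holds for metallothioneins, of which *MT1E* (118 ± 12.4 against 476 ± 6.45 TPM) and *MT1F* (22.5 ± 3.22 against 77.9 ± 2.28 TPM) were called higher in 786O, *MT1G* (3.06 ± 0.921 against 0.124 ± 0.0411 TPM) in CAKi-1, and the most abundant, *MT2A*, was not called (5911 ± 1169 against 3360.5 ± 89.9 TPM). The zinc carrier *SLC39A8* was higher in 786O (14.2 ± 0.669 against 69.8 ± 0.869 TPM), and over 9 genes of metal binding and transport 3 were called toward 786O and 1 toward CAKi-1.

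Position genes of the HOX clusters were expressed in both lines. Of 34 genes, 10 were called higher in 786O and 2 in CAKi-1, and quantile normalization left 7 toward 786O. *HOXD10* (5.93 ± 0.51 against 37.5 ± 3.01 TPM), *HOXD11* (5.06 ± 0.894 against 22 ± 1.4 TPM), *HOXA9* (46.2 ± 1.98 against 170.0 ± 5.05 TPM) and *HOXA2* (2.0 ± 0.283 against 10.7 ± 0.715 TPM) were higher in 786O. *HOXC8* (20.8, 20.5, 19.1 and 19.4 TPM against 2.64, 2.61 and 2.64 TPM) and *HOXC11* (3.82 ± 0.511 against 1.07 ± 0.148 TPM) were higher in CAKi-1. *HOXB9* (31.7 ± 2.46 against 32.8 ± 0.822 TPM), *HOXC9* (9.85 ± 1.23 against 10.2 ± 0.349 TPM) and *HOXD8* (8.02 ± 0.0908 against 10.6 ± 0.467 TPM) were not called. The list of MAGE and cancer-testis genes held 9 with values in both lines. *MAGED4* (25.5 ± 2.32 against 0.667 ± 0.0631 TPM) was called higher in CAKi-1 and *MAGEE1* (0.0481 ± 0.0228 against 2.82 ± 0.139 TPM) in 786O, and both belong to MAGE subfamilies that normal tissues express too.

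Genes of DNA replication and mitosis had the lowest share of calls of any list but the mitochondrially encoded genes, below the 18.4% over all shared genes. Of 32 genes 3 were called (9.38%), *GINS1* higher in 786O (12.1 ± 0.418 against 39 ± 1.39 TPM) and *CCNE1* (20.2 ± 1.95 against 7.05 ± 0.414 TPM) and *GINS2* (35.6 ± 1.18 against 17.1 ± 0.588 TPM) higher in CAKi-1, and *GINS2* was lost without CAKi-1 replicate 2 (log2 difference 0.998) or without 786O replicate 3 (0.998). The proliferation marker *MKI67* was at 65.6, 63.9, 68.1 and 54.1 TPM in CAKi-1 and 65.7, 60.5 and 63.6 TPM in 786O, and the helicase subunit *MCM2* at 103 ± 0.966 against 71.7 ± 0.555 TPM, neither called. None of the 13 mitochondrially encoded genes was called, with log2 differences from -0.35 for *MT-CYB* to 0.68 for *MT-ND1*.

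Among cell cycle inhibitors and tumour suppressors, 3 of 20 were called higher in CAKi-1 and 1 in 786O. The ubiquitin ligase *MDM2* (67.7, 74.5, 71.1 and 85.8 TPM against 15.3, 11.2 and 11.3 TPM) and the cell cycle inhibitor *CDKN1A* (211 ± 6.61 against 61.4 ± 1.54 TPM) were higher in CAKi-1. *CDKN2D* was higher in 786O (5.75 ± 0.319 against 14.4 ± 0.563 TPM). *CDKN2A* and *CDKN2B*, neighbours on the short arm of chromosome 9 that tumors often lose, had no value in either line among the genes analysed here, and *MTAP* beside them was expressed in both (56.8 ± 2.76 against 49 ± 1.49 TPM). *PBRM1*, a chromatin gene on the same chromosome arm as *VHL*, was at 15.8 ± 0.815 against 30.8 ± 1.71 TPM and was not called.

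Differences were unequal across chromosomes. Among 10895 genes with a mean of at least 5 TPM in one of the lines, the median log2 difference was -0.11, but it was -0.73 on each of chromosomes 14, 21 and 22 and -0.45 on chromosome 7. Over all these genes 847 were called higher in CAKi-1 and 1471 in 786O. On chromosome 14, which ccRCC often loses, 116 of 360 genes were called higher in 786O and 5 in CAKi-1, and 6.39% of its genes had the higher mean in CAKi-1. The largest differences there were *NID2*, *FOS* (0.765 ± 0.0751 against 77.1 ± 4.11 TPM) and *EGLN3*. *HIF1A*, on the same chromosome, had the higher mean in CAKi-1. On chromosome 13 the median was 0.53 and 80.1% of 171 genes were higher in CAKi-1, led by *SHISA2*, *GRTP1* (9.5 ± 0.52 against 0.91 ± 0.137 TPM) and *POGLUT2* (55.8 ± 10.8 against 10.3 ± 0.151 TPM), and on chromosome 12 it was 0.44, with 94 of 584 genes called higher in CAKi-1 and 31 in 786O. Copy number was not measured, and its part in these medians was not tested.

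**Figure D5:**
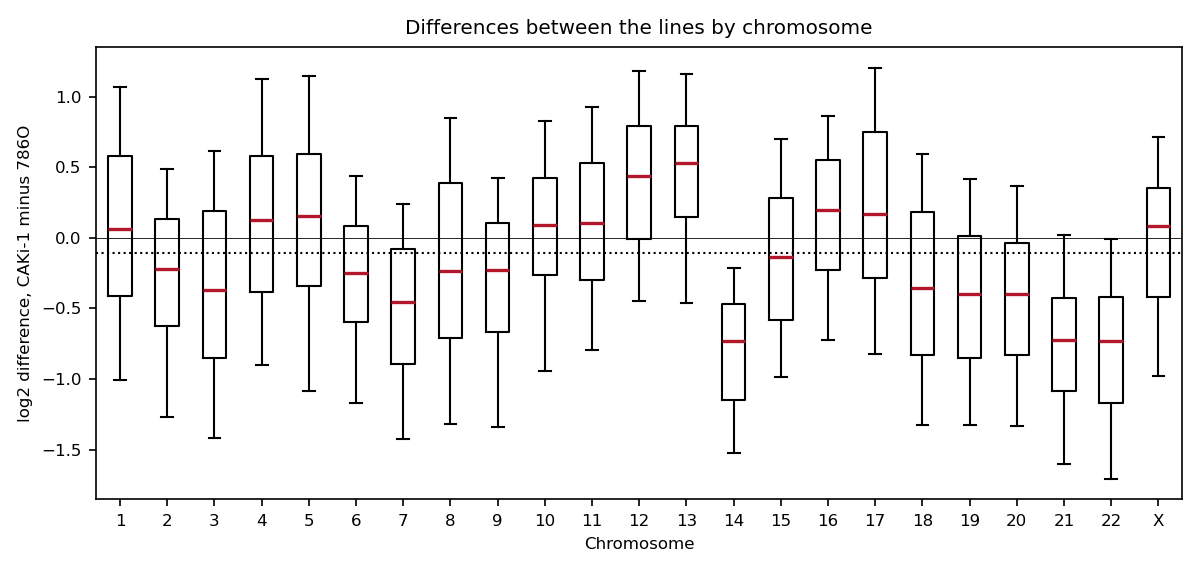
Log2 difference between WT CAKi-1 and WT 786O for 10895 genes with a mean of at least 5 TPM in one of the lines, by chromosome. Boxes span the quartiles, red lines are medians, whiskers run from the lowest to the highest decile of genes and the dotted line is the median of all genes, -0.11. Nearly the whole span of chromosome 14 lies below 0, and chromosomes 12 and 13 have the highest medians.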

How the data were processed

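RNA was sequenced from 15 libraries of CAKi-1 and 786O cells (poly(A) selection, 150-base paired-end reads, 3000000 reads per sample per the labels). Per the labels and methods, the authors used kallisto (version not given in the sources used here) with hg38 to estimate transcript levels, and 1 table of TPM per line was deposited. The unit was not named in the files and was read from the methods and from sums of 961437 to 973125 per library. Genes were filtered separately in each table, by a rule that is not given, and no value is 0. How transcripts were summed to genes is not stated. TPM keeps no read counts, so depth and count tests were not available.

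Groups and replicate numbers came from the sample labels, and knockout libraries were not used. The tables were joined on gene symbol (15247 genes, of which 15244 have a GENCODE 44 symbol), each WT library was rescaled to a sum of 1000000 over these genes, and the lines were compared with limma 3.58.1 in R 4.3.3 (lmFit and eBayes, two-sided, on log2(TPM + 1)), with Benjamini-Hochberg adjustment over all 15247 genes. The fit was first run on simulated libraries in which a set of genes had been changed. Each line has a table of its own, so every difference also carries any difference between the tables.

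The members and lists were chosen with earlier results of these data known. The genes named were, per list, fixed markers and up to 4 called members in each direction with the largest difference, the 10 largest differences in each direction among called genes that did not overlap and reached 10 TPM, the 5 highest genes of 1 table only, the 5 with the largest SD in each line, *GAPDH* and *PPIA*, and 3 genes of the chromosomes with the highest and lowest medians (chromosomes in place of arms, for which no map was at hand). A further 51 genes with values in both lines, nearly all list members, were named after their values had been seen, for example *ANPEP*, *SQLE*, *PSAT1*, *NDRG1*, *CD44* and *HAVCR1*. Results for some further genes are not reported here. Gene coordinates are from GENCODE 44 and promoters from RefSeq on GRCh38.p14. Alternatives were other scalings, pseudocounts, filters, variance models, call rules, the replicate block, and leaving out libraries.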

Additional observations from a re-analysis of the deposited data

Results flagged for a closer look

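In 13 of 275 named genes tested, 1 CAKi-1 library stood apart from the other 3 by Dixon's criterion on log2(TPM + 1), which chance alone meets in about 1 of 20 groups, so the number of such genes was not above what chance gives. The 786O libraries, 3 in number, were not tested. Replicate 4 was the library apart in 7 genes. It was low for *DSP* (6.42 TPM against 7.50 to 7.63 TPM in the others), *VIM* (3173 against 3361 to 3400.0 TPM), *PTGS1* (5.16 against 6.58 to 6.85 TPM), *LAMA3* (17.6 against 24.4 to 24.9 TPM) and *MT-ND1* (3847 against 5065 to 5253 TPM), and high for *STC2* (461 against 377 to 390.4 TPM) and *PLTP* (122 against 97.2 to 101 TPM). Replicate 2 was apart in 4 genes, low for *IGFBP3* (26.8 against 43.3 to 45.8 TPM) and *MT1F* (17.7 against 23.9 to 24.3 TPM), and high for *OSGIN1* (15.1 against 14.1 to 14.2 TPM) and *SLC38A5* (0.699 against 0.306 to 0.319 TPM). Replicate 1 was high for *GAPDH* (6778 against 6623 to 6644 TPM). Replicate 3 was high for the ribosomal RNA pseudogene *RNA5-8SP6* (6459 against 814 to 1031 TPM), which was named after its values were seen. The cytokine genes named here are not among these, since in them no single library met the criterion.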

How the results depend on the processing

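TPM keeps no read depth, levels under 1 TPM are least certain, and with 4 and 3 libraries the spread of a gene is known only roughly, although limma shares it across genes. The calls were counted again under the other settings. The adjusted p alone gave 11268 genes (4798 higher in CAKi-1, 6470 in 786O), a minimum log2 difference of 2 gave 723 (295 and 428), and a test against a log2 difference of 1 (treat) gave 1791 (666 and 1125). The first of these rules is looser and the others are stricter by construction. Under the other scalings, filters, pseudocount and variance model the count stayed within 1.5 times 2800, from 2714 with quantile normalization to 3935 with a pseudocount of 0.1. Leaving out 1 library gave 2773 to 2830 genes, 1029 to 1079 higher in CAKi-1 and 1720 to 1767 in 786O. Leaving out CAKi-1 replicates 3 and 4, an alternative chosen after seeing the data, gave 2771.

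No pairing of libraries by replicate number was seen. The deviations of same-numbered libraries from the means of their lines had correlations of 4.8e-05, -0.060 and -0.034, and not every library correlated best with its own number. This cannot exclude pairing, since deviations within a line are tied to each other and a shared preparation need not move the same genes in both lines. With the replicate number as a block, which leaves CAKi-1 replicate 4 without a partner and so drops it, 2773 genes were called (1053 and 1720).

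Of 275 named genes with a value in both lines 207 were called, and 195 of these were called in the same direction under every setting that kept the rule for a call. The 12 others were *CXCL1*, *CSF2*, *GAPDH*, *PLIN2*, *MET*, *GINS2*, *GDF15*, *GBP2*, *NT5E*, *TGFA*, *CDKN2D* (log2 difference -0.99 after quantile normalization) and *SMIM11*. Quantile normalization also ended the calls of *GAPDH* and *SMIM11*, median-ratio scaling that of *PLIN2*, rescaling without mitochondrially encoded genes that of *GAPDH* (0.999), a pseudocount of 0.1 that of *SMIM11* (adjusted p = 0.0712) and the replicate block that of *GDF15* (0.95), the library omissions are given beside the results, and *CXCL1* had adjusted p = 0.0714 with limma's trend and robust options. With a pseudocount of 0.1, *AQP1*, *CDH1*, *PPARGC1A*, *LUM* and *PECAM1* were called as well, *B2M*, whose difference lies at the threshold, was called under 8 other settings, *LUM* without 786O replicate 2, and *IL6* without CAKi-1 replicates 3 and 4. No called gene changed direction. Among genes not called, log2 differences with the sign reversed were 0.068 for *CPT1A*, 0.019 for *CUBN*, 0.031 for *FASN*, 0.068 for *HOXB9*, 0.15 for *HOXC9*, 0.058 for *MEF2C*, 0.076 for *MKI67*, -0.019 for *TUBA1B* and 0.10 for *ZEB1* after quantile normalization. They were 0.038 for *CPT1A*, 0.00204 for *CUBN*, 0.077 for *FASN*, 0.044 for *HOXB9*, 0.034 for *HOXC9*, 0.087 for *MKI67* and 0.013 for *ZEB1* after median-ratio scaling, and 0.029 for *CPT1A*, 0.0091 for *HOXC9*, 0.029 for *MEF2C* and 0.057 for *MKI67* with the replicate block. Without CAKi-1 replicates 3 and 4 they were -0.13 for *CCL20*, 0.064 for *CPT1A*, -0.081 for *CXCL5*, -0.70 for *CXCL8*, 0.029 for *HOXB9* and 0.033 for *MKI67*. Leaving out 1 library at a time, differences that crossed 0 ranged from -0.077 to 0.039 for *CPT1A*, -0.12 to 0.024 for *CUBN*, -0.056 to 0.015 for *FASN*, -0.0042 to 0.021 for *HNF4A*, -0.12 to 0.0091 for *HOXC9*, -1.25 to 0.25 for *IL6*, -0.018 to 0.028 for *LRP2*, -0.61 to 0.23 for *MEF2C*, -0.052 to 0.057 for *MKI67* and -0.24 to 0.44 for *RNA5SP82*. The cause of these changes was not tested.

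Of the counts of list members of 5 or more, 2 moved by over 1.5 times under another scaling or without a library, the cytokine genes higher in CAKi-1 (7, and 4 to 8 without 1 library) and the lipid genes higher in 786O (8, and 5 after median-ratio scaling).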

Other observations

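Several further genes with a value in 1 line only, chosen after their values were seen, add to the lists above. In 786O, *INHBB*, a subunit of activin and a HIF target, was at 33.3 ± 1.25 TPM as deposited and *RSAD2*, an antiviral interferon-stimulated gene, at 3.07 ± 0.284 TPM. The cancer-testis gene *MAGEA6* was at 38.6 ± 0.93 TPM, and *XAGE1A* and *XAGE1B* had the same value in each library (4.99, 4.88 and 5.2 TPM), as identical copies would. In CAKi-1, the granulocyte growth factor *CSF3* was at 0.0215, 0.0795, 1.15 and 6.51 TPM, highest in replicate 4 and next in replicate 3 like the other cytokine genes.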
